A study of Sus scrofa with 32 samples.

Results

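Naive T cells of the porcine ileum were studied as 220 cells that carried RNA of the CD3E subunit of the T cell receptor complex together with at least 2 UMIs in all of CCR7, LEF1 and S1PR1, from 1 or more of these 3 genes. The cells were chosen by a rule on measured counts. A cell needed at least 1250 unique molecular identifiers (UMIs, each standing for 1 captured RNA molecule), at least 550 genes and at most 12.5% mitochondrial UMIs. It also needed at least 1 UMI of CD3E, at least 2 UMIs of CCR7, LEF1 and S1PR1 together, and none of GZMB, PDCD1, CD79B, MS4A1, TOP2A or EPCAM. The 220 members came out of 35386 ileal cells that passed the quality thresholds, of which 16117 had a UMI of CD3E, and the 8 libraries of the series held 48629 passing cells in all. The same rule found 722 cells in peripheral blood mononuclear cells (PBMC). As a rule on counts does not make a cell naive, the cells are called naive-gated from here on. Other T cells are cells that met every condition except that their sum of the 3 genes was 0, and there were 1397 of them in the ileum.

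A naive T cell has left the thymus and has not yet met its antigen. It circulates between blood and lymphoid tissue, entering lymph nodes and Peyer's patches with the help of the chemokine receptor CCR7, and leaving them along a gradient of sphingosine 1-phosphate that is sensed by S1PR1. The transcription factor KLF2 drives transcription of S1PR1, while LEF1 and TCF7 maintain the undivided naive state and IL7R carries the survival signal of interleukin 7. Most T cells of the gut wall are of another kind, namely antigen-experienced cells that stay in the tissue, make cytotoxic molecules and carry integrins and chemokine receptors for the mucosa. Pigs differ from mice and humans in that γδ T cells, marked by the δ chain gene TRDC, form a large part of their blood T cells.

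The libraries came from 2 pigs of mixed breed, untreated and 7 weeks old, of which pig 1 is labelled female and pig 2 male. From each pig the ileum gave 3 libraries, 1 from tissue with Peyer's patches (PP), 1 from tissue without them (non-PP) and 1 from a whole cross section (whole ileum), and blood gave 1 PBMC library. Ileal cell suspensions had been enriched for live lymphocytes before capture, which acts on the makeup of the ileal libraries and not on that of PBMC. With 1 library per tissue and pig, every p-value below measures the spread between values labelled as these 2 animals. The ileal values of pig 1 include a library that goes against its label, as described below.

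The ileal libraries held 21134542 to 40111934 UMIs and 3776 to 7704 passing cells each, and the PBMC libraries 36465389 and 38240907 UMIs with 6443 and 6800 passing cells. The median naive-gated cell had 2607 UMIs in the ileum and 3079.5 UMIs in PBMC. Summed over its members, a library gave between 5728 UMIs (non-PP of pig 2) and 203974 UMIs (PP of pig 1) in the ileum, and 992752 and 1495494 UMIs in PBMC. Intervals given here are 95% Clopper-Pearson intervals and cover counting error only.

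The whole ileum library of pig 1 went against its label. It held 3208 UMIs of the Y-linked gene DDX3Y, found in 38.3% of its cells, whereas the PP, non-PP and PBMC libraries of the same pig, labelled female, held 5, 1 and 0. In the libraries of pig 2, labelled male, DDX3Y was found in 40.5% of the PP, 33.7% of the non-PP, 41.2% of the whole ileum and 25.6% of the PBMC cells. Among the 34 naive-gated cells of that library, 11 (32.4%) carried DDX3Y. The levels of pig 1 in the ileum include this library, and the main values are also given without it. Any pair of libraries shared 21 to 80 barcode sequences among their passing cells, and no naive-gated cell had a barcode of a naive-gated cell in another library.

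Naive-gated cells were most frequent in PP libraries and nearly missing from non-PP libraries. They numbered 67 and 71 in the PP libraries of pig 1 and pig 2, 5 and 2 in the non-PP libraries, and 34 and 41 in the whole ileum libraries. As a share of CD3E+ cells these were 2.41% and 2.95% in PP, 0.147% and 0.0769% in non-PP, and 1.22% and 1.91% in whole ileum. Both PP values lay above both whole ileum values, and these above both non-PP values. The mean share was 2.68% in PP and 0.112% in non-PP (n = 2 each), a difference of 2.57 percentage points with a two-sided exact permutation p of 0.333, which is the smallest p that 2 against 2 can give.

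In PBMC the share was 8.80% in pig 1 and 13.9% in pig 2. With the 3 dissections of a pig weighted equally, the ileal share was 1.26% in pig 1 and 1.65% in pig 2, so that the blood mean of 11.3% was 7.79 times the ileal mean of 1.45%. The difference of ileum minus PBMC was -9.87 percentage points and lay the same way in both pigs (two-sided exact permutation p = 0.333, n = 2 each), and without the whole ileum library of pig 1 it was -9.86 percentage points. PP stayed above non-PP and PBMC above ileum in the means under each other gate tried, while the levels moved. Dropping the GZMB condition raised the share to 5.58% and 7.03% in PP, 0.675% and 1.35% in non-PP, 5.94% and 4.42% in whole ileum, and 17.4% and 32.3% in PBMC. Under that gate the whole ileum library of pig 1, the one that goes against its label, lay above the PP library of the same pig.

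**Figure D1:**
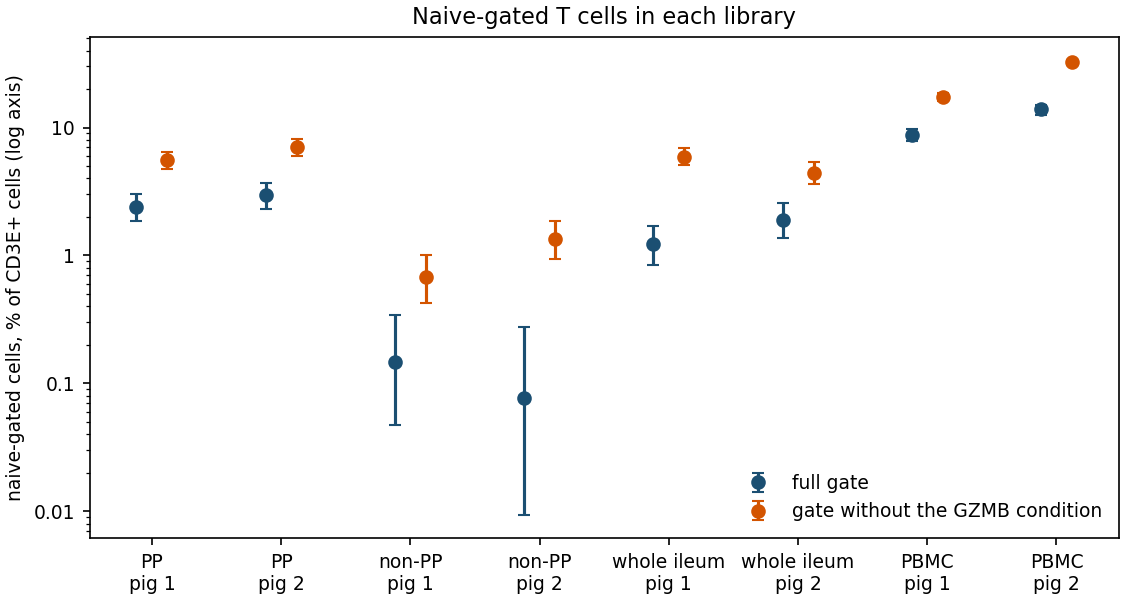
Naive-gated cells as a percent of CD3E+ cells (y axis, log scale) in each library, under the full gate (blue) and without the GZMB condition (orange), with 95% Clopper-Pearson intervals for counting error. Under the full gate the PP libraries (2.41% and 2.95%) lie above the whole ileum libraries (1.22% and 1.91%) and the non-PP libraries (0.147% and 0.0769%), and the PBMC libraries (8.80% and 13.9%) lie above them all.

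Few members carried all 3 genes that chose the cells. Of the 220 ileal members, 39 had CCR7 alone, 25 had S1PR1 alone and 13 had LEF1 alone, so that 143 (65.0%) had UMIs of at least 2 of the 3 genes and 32 (14.5%) had all 3. In PBMC 75.3% of the 722 members had at least 2 of the genes and 22.9% had all 3. The sum of the 3 genes was exactly 2, the threshold, in 48.2% of ileal and 36.1% of PBMC members. Just outside the threshold, cells with a sum of 1 numbered 54 and 43 in PP, 11 and 3 in non-PP, 33 and 42 in whole ileum, and 180 and 218 in PBMC.

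In the ileum, cells just outside the threshold lay between naive-gated and other T cells in KLF2, CCL5, TRDC and CD2, but not in TCF7. In the ileum of pig 1, KLF2 was at 16.2 CPM (counts scaled to a common total per sum of cells) in cells with a sum of 0, at 161 CPM with a sum of 1 and at 231 CPM with a sum of 2, and then at 164 and 222 CPM with sums of 3 and of 4 or more. In pig 2 the same 5 values were 24.6, 67.7, 88.3, 148 and 147 CPM, so that above the threshold KLF2 did not go one way in both pigs. CCL5, a chemokine of cytotoxic and resident T cells, fell along the same steps, from 17090 CPM at a sum of 0 to 4056, 2286 and, at 4 or more, 317 CPM in pig 1, and from 10757 to 3091, 1041 and 179 CPM in pig 2. TRDC stood at 2006 CPM at a sum of 0 and at 438 CPM at a sum of 2 in pig 1, and at 2348 and 404 CPM in pig 2, and at 4 or more it was at 31.7 and 305 CPM. TCF7 at sums of 0, 1 and 2 was at 252, 228 and 366 CPM in pig 1. In pig 2 it was at 243, 237 and 246 CPM, and among these 3 sums both pigs were lowest at a sum of 1. At sums of 3 and of 4 or more, TCF7 was at 360 and 333 CPM in pig 1. In pig 2 it was then at 230 and 231 CPM, below its value at a sum of 1. CD2 at a sum of 1 was at 645 and 634 CPM in the ileum. It was at 617 and 604 CPM in naive-gated and 744 and 768 CPM in other ileal T cells. In PBMC, TRDC at a sum of 1 was at 947 and 1471 CPM, above the 781 and 923 CPM at a sum of 0. Without the whole ileum library of pig 1, the values of that pig at sums of 0, 1 and 2 were 14.4, 163 and 270 CPM for KLF2 and 19147, 5073 and 3191 CPM for CCL5, and at a sum of 3 KLF2 lay below its value at a sum of 1. From a sum of 0 to a sum of 2 the steps of KLF2, CCL5 and TRDC lay the same way in the ileum of both pigs, and they are a description, since the 3 genes chose the cells.

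**Figure D2:**
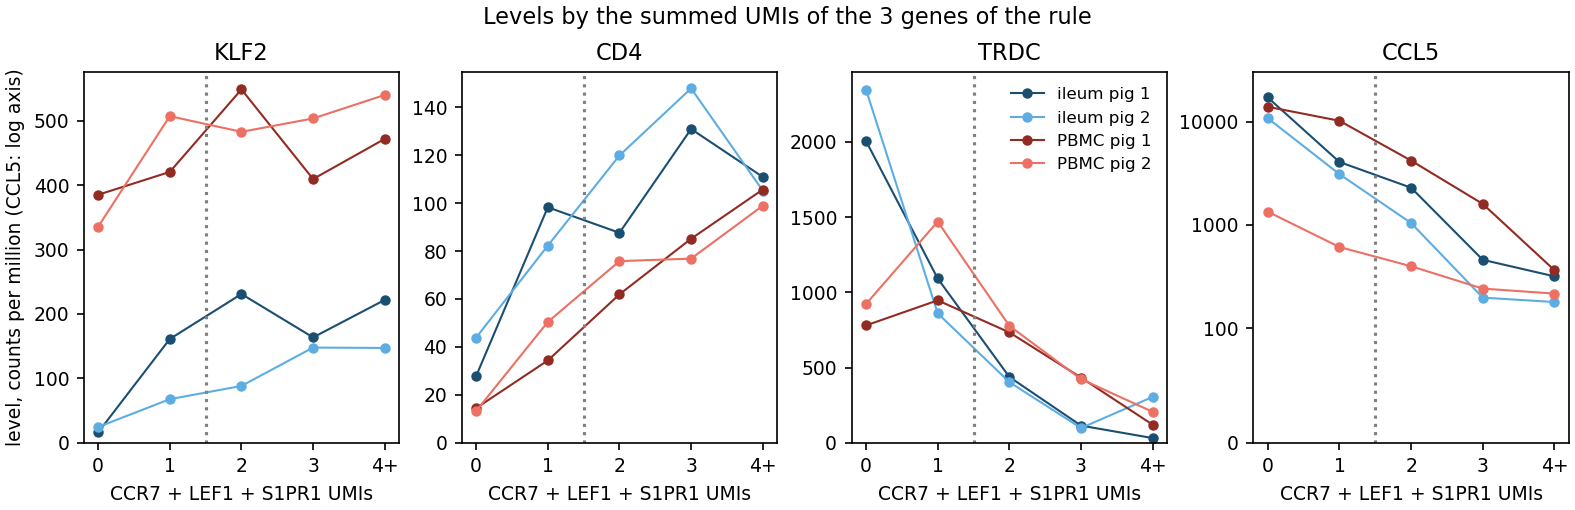
Levels of KLF2, CD4, TRDC and CCL5 (y axes, CPM, on a linear axis except for CCL5, whose axis is logarithmic above 100) in cells grouped by their summed UMIs of CCR7, LEF1 and S1PR1 (x axis), 1 line per tissue and pig. The dotted line marks the threshold of the rule, and ileal CCL5 drops from 17090 and 10757 CPM at a sum of 0 to 317 and 179 CPM at 4 or more.

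The condition that a cell hold no UMI of GZMB, the gene of the cytotoxic protease granzyme B, set how many CD8B-bearing cells the gate took. With all other conditions kept, 642 ileal cells had at least 2 UMIs of the 3 genes, and only 220 of them (34.3%) had no GZMB. RNA of CD8B, which marks conventional cytotoxic αβ T cells, was found in 3 of these 220 cells (1.36%, interval 0.282 to 3.93%). It was found in 8 of 132 cells with 1 GZMB UMI (6.06%), in 24 of 135 cells with 2 to 5 (17.8%) and in 64 of 155 cells with 6 or more (41.3%, interval 33.5 to 49.5%). The 4 shares without the whole ileum library of pig 1 were 1.61%, 5.05%, 18.1% and 42.9% of 186, 99, 94 and 98 cells.

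In PBMC, CD8B was found in 1.80%, 3.65%, 19.6% and 53.2% of the 722, 274, 301 and 280 cells of the 4 groups. The shares were 2.64%, 11.5%, 35.9% and 45.1% in pig 1 and 1.19%, 0%, 7.51% and 56.6% in pig 2, where the group with 1 GZMB UMI had no CD8B in 187 cells (interval 0 to 1.95%). CD4, the coreceptor of helper T cells, went the other way. It was found in 24.5%, 22.7%, 20.7% and 4.52% of the ileal cells and in 22.4%, 22.6%, 17.6% and 6.43% of the PBMC cells. KLF2 was in 26.4% of ileal cells without GZMB and in 33.5% of those with 6 or more UMIs of it. The median depth of these end groups was 2607 and 3493 UMIs. In PP the share of KLF2 went from 31.3% to 12.5% in pig 1 and from 21.1% to 31.7% in pig 2. In whole ileum it went from 38.2% to 38.6% in pig 1 and from 19.5% to 36.7% in pig 2. In non-PP, with few cells, it was higher at 6 or more UMIs in both pigs. Without the whole ileum library of pig 1, CD4 was in 25.3% and 3.06% of these end groups of the ileum and KLF2 in 24.2% and 30.6%.

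UMIs of GZMB were also found in B cells of these libraries. Cells gated as B cells, which do not make granzyme B as a rule, carried a GZMB UMI in 33.2% of 14661 ileal cells at a median of 2989 UMIs, and in 12.3% and 22.6% of PBMC B-gated cells at medians of 3471 and 4530 UMIs. The part of free RNA in the GZMB condition was not tested. The naive-gated cells described below held 3 CD8B-bearing cells in the ileum and 13 in PBMC.

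**Figure D3:**
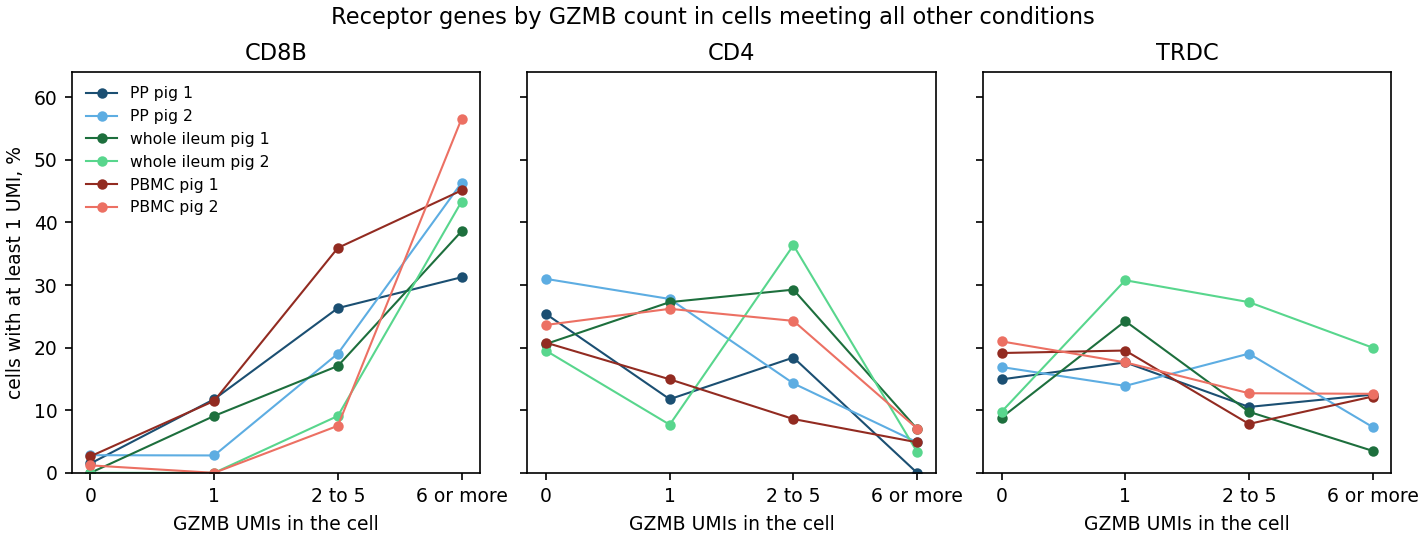
Percent of cells with a UMI of CD8B, CD4 or TRDC (y axis) among cells that met every condition of the rule except that on GZMB, grouped by their GZMB UMIs (x axis), 1 line per library. The non-PP libraries are not drawn for their few cells, and over all ileal cells CD8B goes from 1.36% without GZMB to 41.3% at 6 or more UMIs.

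A UMI of CD4, CD8B or TRDC was found in 87 of 220 ileal members (39.5%) and in 316 of 722 in PBMC (43.8%). In the ileum 52 (23.6%) carried CD4 without CD8B or TRDC, 30 (13.6%) carried TRDC without CD4, and 133 (60.5%) carried none of CD4, CD8B and TRDC. In PBMC these were 158 (21.9%), 143 (19.8%) and 406 (56.2%) of 722. CD5, a brake on T cell receptor signalling, was at 250 and 353 CPM in members with none of the 3 genes against 344 and 418 CPM in CD4-bearing ileal members of pig 1 and pig 2, and at 143 and 161 CPM in TRDC-bearing ones. CD40LG, the helper T cell ligand for B cells, was at 186 and 191 CPM in members with none of the 3 genes, against 250 and 163 CPM in CD4-bearing and 95.3 and 46.0 CPM in TRDC-bearing members. CD28 was at 95.6 and 123 CPM in members with none of the 3 genes, at 188 and 139 CPM in CD4-bearing and at 47.6 and 115 CPM in TRDC-bearing ones. NKG7, a gene of cytotoxic granules, was at 117 and 123 CPM, 0 and 69.7 CPM, and 119 and 276 CPM in the same order. Likeness between these subsets was not tested.

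Without CD8B as well as CD4, there were 14 and 16 TRDC-bearing members in the ileum and 57 and 85 in PBMC, the cells of the values given here. RHEX, an adaptor best known from red cell precursors, was at 572 and 483 CPM in the ileal ones and at 1124 and 780 CPM in those of PBMC, and had 0 UMIs in the CD4-bearing members of both pigs and both tissues. In the ileum its UMIs lay in 5 of 14 and 5 of 16 TRDC-bearing cells, and without the whole ileum library of pig 1 the level in that pig was 615 CPM. BLK, a kinase of the Src family found in B cells and γδ T cells, was at 47.6 and 138 CPM in TRDC-bearing ileal members, from 2 and 6 UMIs, and at 333 and 375 CPM in those of PBMC. It was at 30.8 CPM in pig 1 without the whole ileum library. ID3, an inhibitor of E protein transcription factors that shapes γδ T cells, was at 931 and 1280 CPM in TRDC-bearing PBMC members and at 119 and 184 CPM in the ileal ones, where CD4-bearing members had 125 and 93.0 CPM. The adhesion receptor CD2, low or absent on many γδ T cells of pig blood, was found in 22.8% and 37.6% of the TRDC-bearing PBMC members and in 86.9% and 93.8% of CD4-bearing ones. In the ileum CD2 was in 42.9% and 56.2% of the TRDC-bearing and 72.7% and 73.3% of the CD4-bearing members. No test was made on these subsets, because the ileal TRDC-bearing sums hold few cells.

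The label was then set against genes that the rule did not read. Since the rule chose the ileal cells, this contrast is a description. Of 1914 genes with a mean of at least 50 CPM, 28 (1.46%) were at least 2 times higher and 54 (2.82%) at least 2 times lower in naive-gated than in other T cells of the ileum in both pigs. The circulation gene KLF2 was the clearest of the naive genes, at 214 and 118 CPM against 16.2 and 24.6 CPM. Of 13 genes of a list of naive and circulation genes at that level, 2 were higher in this sense (KLF2 and LTB, a lymphotoxin subunit that lymphoid tissue needs) and 0 lower, and the list's median log2 difference was 0.49 and 0.36 in the 2 pigs, against 0.03 and -0.05 over all 1914 genes.

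TCF7 hardly differed in the ileum, with 352 and 239 CPM in naive-gated cells and 252 and 243 CPM in other T cells. IL7R stood at 173 and 137 CPM against 86.0 and 106 CPM. By cells, KLF2 was in 26.4% of the members (interval 20.7 to 32.7%) and in 3.58% of other T cells, at median depths of 2607 and 2644 UMIs. B-gated ileal cells had it in 12.8% at a median of 2989 UMIs, below the share in the members. KLF2 and LTB were therefore richer in the members than in other ileal T cells, while most members lacked a UMI of KLF2.

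Genes that were lower in the members stood out more plainly. Of 17 genes of the gut effector and residency list at the same level, 10 were at least 2 times lower in both pigs and 0 higher, with a median log2 difference of -2.01 and -1.63. CCL5 was at 1135 and 617 CPM in the members against 17090 and 10757 CPM in other T cells. A UMI of CCL5 was still found in 67.9% and 45.6% of the members of pig 1 and pig 2, and 59.4% and 32.5% of the members' CCL5 UMIs lay in 1 cell of each pig. The chemokine XCL1 was at 32.0 and 47.7 CPM against 929 and 955 CPM. ITGAE, the integrin chain that holds T cells at epithelium, was at 47.9 and 22.3 CPM against 316 and 206 CPM. The receptor KLRK1 was at 41.5 and 38.2 CPM against 788 and 735 CPM, and the pore-forming protein gene PRF1 at 19.2 and 12.7 CPM against 128 and 144 CPM. Innate lymphoid markers are a list that shares FCER1G with this one. In PP they summed to 974 and 758 CPM in other T cells against 265 and 234 CPM in members. In non-PP they summed to 1178 and 1225 CPM against 0 and 524 CPM, the members' values from 0 and 3 UMIs. In whole ileum they summed to 772 and 745 CPM against 177 and 712 CPM. Their part in the contrast was not tested. Without the whole ileum library of pig 1, these 10 genes were still at least 2 times lower in that pig, with CCL5 at 1488 against 19147 CPM. Both naive and circulation genes that were higher remained so, KLF2 with 217 against 14.4 CPM, as did the 15 higher and 15 lower genes with the largest difference over all genes.

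Other T cells also held 1887 and 1999 CPM of the antibody joining chain JCHAIN, against 147 and 181 CPM in the members. This is a gene of B lineage cells, and its part in the contrast was not tested. By library the other T cells held 350 to 4716 CPM of JCHAIN in PP and whole ileum, while the B cell markers summed to at most 47.2 CPM in them. Of the 15 higher genes with the largest difference, PDK1, a kinase that turns pyruvate away from mitochondria, was at 131 and 121 CPM against 27.4 and 23.9 CPM. The integrin chain ITGB2 was at 163 and 210 CPM against 67.3 and 63.8 CPM, and RASGRP2, an activator of integrin adhesion, at 86.3 and 92.2 CPM against 27.4 and 26.6 CPM. CD28, the costimulatory receptor, was at 112 and 124 CPM against 43.6 and 37.9 CPM. FOLR1 was at 83.1 and 102 CPM against 19.1 and 20.6 CPM, but 88.5% and 62.5% of its UMIs in the members came from 1 cell in each pig.

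**Figure D4:**
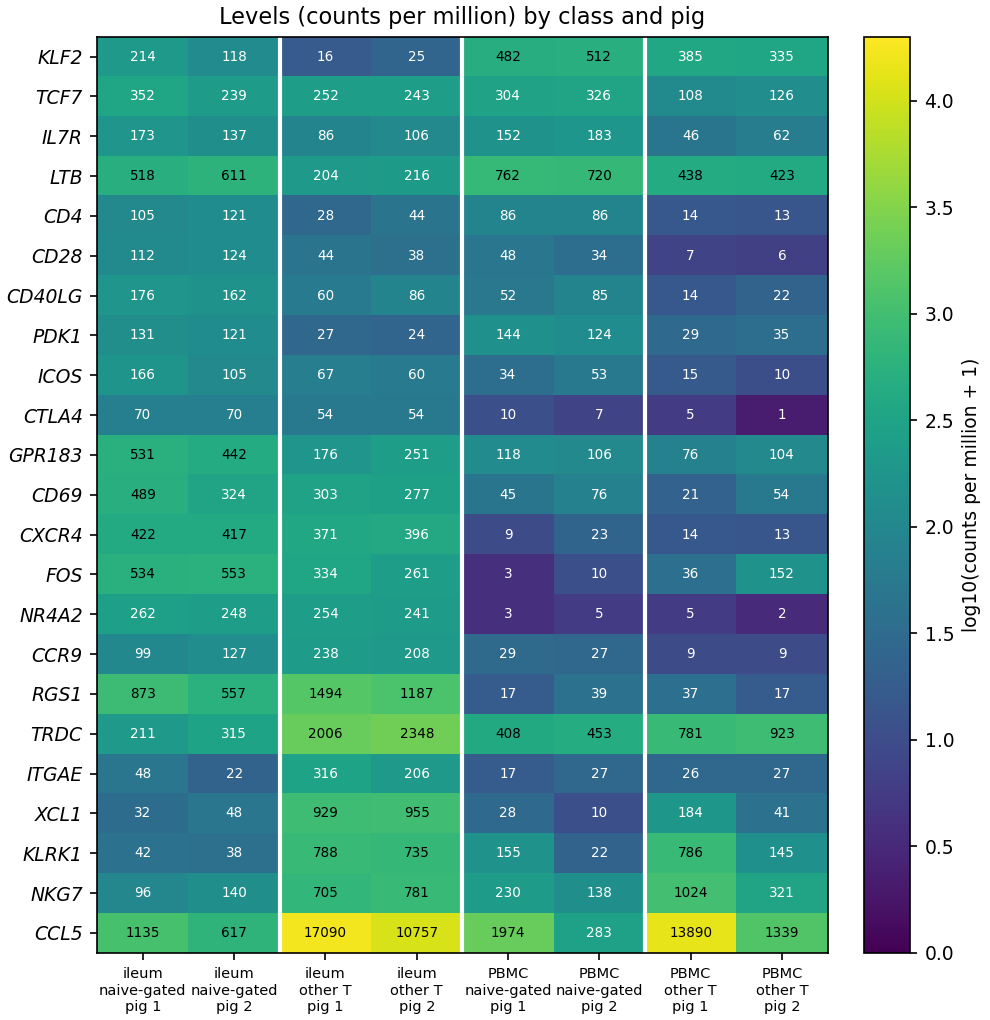
Level of 23 genes in naive-gated and other T cells of the ileum and PBMC of each pig, as CPM in each field and as log10 of CPM plus 1 in color. KLF2 is at 16.2 and 24.6 CPM in other T cells of the ileum and at 118 CPM or more in each of the other columns, and CCL5 is at 1135 and 617 CPM in ileal naive-gated cells.

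In PBMC the same rule chose the cells by their own UMIs, so that the contrast there is a description too, and the counts of genes past the threshold support nothing about the naive state. The median depth was 2939 and 3199 UMIs in naive-gated cells and 2537 and 2747 UMIs in other T cells. In naive-gated cells of blood, 6 of 22 genes of the naive and circulation list were higher than in other T cells of blood and 2 lower, and of 26 gut effector and residency genes 7 were lower and 1 higher. Of 7251 genes tested, 173 (2.39%) were higher and 252 (3.48%) lower at an adjusted p below 0.05 in edgeR's quasi-likelihood test with Benjamini-Hochberg adjustment, 425 (5.86%) in all. With the pig as a block the count was 758, and with pig 2 left out of the compared groups it was 147. The genes of the rule define the groups and are left aside.

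Of 22 tested genes of the naive and circulation list, 6 were higher, namely TCF7, PIK3IP1, SORL1, LTB, DGKA and IL7R, and 2 were lower, TXNIP and GIMAP4, with a median log2 difference of 0.59 against 0.00 over all genes. TCF7 was at 304 and 326 CPM in naive-gated and 108 and 126 CPM in other T cells of PBMC, a log2 difference of 1.49 (SE 0.21). IL7R was at 152 and 183 CPM against 46.3 and 62.0 CPM (log2 difference 1.70, SE 0.24). The groups did not overlap for either gene. With pig 2 left out of the compared groups, PIK3IP1, SORL1, LTB, DGKA and TXNIP lost their calls, and with pig 1 left out SORL1 did. KLF2 stood at 482 and 512 CPM against 385 and 335 CPM, with a log2 difference of 0.53, and did not pass.

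Among the genes with the largest change, FADS3, of the fatty acid desaturase family, was at 113 and 84.3 CPM in naive-gated PBMC against 14.5 and 17.7 CPM in other T cells (log2 difference 2.67, SE 0.35). PDK1 was at 144 and 124 CPM against 28.9 and 35.4 CPM, a log2 difference of 2.12 (SE 0.22). In the ileum PDK1 and FADS3 lay the same way, FADS3 with 83.1 and 89.0 CPM in members and 6.23 and 3.33 CPM in other T cells. CD5 (log2 difference 1.92), the calcium-dependent kinase CAMK4 (1.70), SPOCK2 (2.04), DAPL1 (1.80), ABLIM1 (1.60) and SCML4 (1.59) completed the higher genes together with GSTA4 (2.32). Of these genes, SCML4 alone lost its call with pig 2 left out of the compared groups.

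Of 18 tested genes of the receptor complex and coreceptor list, 8 were higher in naive-gated PBMC, among them CD4 (log2 difference 2.68) and CD28 (2.77), and TRDC was lower (-0.92), a call that was lost with either pig left out. Of 26 gut effector and residency genes, 7 were lower (NKG7, ZNF683, PRF1, GNLY, XCL1, FCER1G and GZMA) and CCR9 was higher. ZNF683 and GZMA lost their calls without pig 1, and CCR9, as well as CST3 among the genes named next, without pig 2. The symbol GZMA stands on more than 1 row of the matrices, and its call is uncertain. The genes with the largest negative difference included S100A12, PLBD1, CASP1, CXCL10, AIF1, CST3, SPI1, TYROBP and LY86, known from monocytes and other myeloid cells. The other T cells of PBMC held 1756 and 3885 CPM of 13 myeloid markers, LYZ the most abundant with 1404 and 1859 CPM, against 27.2 and 256 CPM in the naive-gated cells. Innate lymphoid markers, among them FCER1G and TYROBP, summed to 1322 and 2134 CPM in the other T cells against 113 and 237 CPM. Mast, stromal, endothelial, platelet and red cell markers, mostly HBB, summed to 22984 CPM in other T and 2233 CPM in naive-gated cells of pig 1, and lay the other way in pig 2 with 439 and 1809 CPM. The part of such RNA in these 252 lower genes was not tested. Of 58 ribosomal protein genes, 29 were higher and 0 lower, a count that came to 15 with relative log expression scaling, to 6 after thinning cells to one depth, and to 8 and 3 with pig 1 and pig 2 left out.

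Between tissues, naive-gated cells of the ileum were higher than those of blood in 15 of 26 immediate early and stress genes and lower in 0, and of 22 genes of the naive and circulation list 0 were higher and 4 lower. Of 7251 genes, 305 (4.21%) were higher and 81 (1.12%) lower in the ileum at an adjusted p below 0.05 in edgeR's quasi-likelihood test, 386 (5.32%) in all. Without the whole ileum library of pig 1 there were 317, with only pig 2 in the compared groups 89, and with only pig 1 there 74. In these smaller fits the lone sums of a group are taken to vary as the other groups do. With 1 sum per ileal library, 242 genes were higher and 283 lower in the ileum, with a median log2 difference of -0.26 over all genes.

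Genes of the naive state lay near each other in the tissues in part. TCF7 had 352 and 239 CPM in the ileum and 304 and 326 CPM in PBMC (log2 difference 0.00, SE 0.21), and IL7R had 173 and 137 CPM against 152 and 183 CPM (log2 difference -0.03, SE 0.24). For both genes the values of the tissues overlapped. Of 22 tested genes of the naive and circulation list, 0 rose and 4 fell in the ileum (KLF2, ID3, TXNIP and GIMAP4), with a median log2 difference of -0.31 against -0.02 over all genes tested. ID3, TXNIP and GIMAP4 lost their calls with either pig left out of the compared groups, and TXNIP without the whole ileum library of pig 1.

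KLF2 was in 31.3% and 21.1% of the members of the PP libraries and in 38.2% and 19.5% of those of whole ileum, against 78.2% and 76.4% in PBMC. Summed, it was at 214 and 118 CPM in the ileum and 482 and 512 CPM in PBMC, and fell by 1.49 on the log2 scale (SE 0.27, adjusted p = 0.00635 by edgeR's quasi-likelihood test). By library KLF2 was at 196 and 122 CPM in PP and at 209 and 116 CPM in whole ileum, below both PBMC values. In the non-PP libraries it was at 536 CPM in pig 1, above both PBMC values, with its UMIs in 1 of 5 members. It was at 0 in the 2 members of pig 2. The fall was 1.53 without the whole ileum library of pig 1, and 1.52 among CD4-bearing members alone, and with only pig 1 in the compared groups it was 1.09 with an adjusted p of 0.218 in the same test. After thinning of the cells to one depth, KLF2 was in 16.8% of ileal members and in 44.9% and 48.7% of those of PBMC. ID3 fell by 1.53 on the log2 scale (SE 0.31), but among CD4-bearing members its log2 difference was -0.20. Its call was lost with either pig left out. In the TRDC-bearing members described above, ID3 was at 119 and 184 CPM in the ileum and at 931 and 1280 CPM in PBMC.

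Immediate early and stress genes are switched on within minutes of a stimulus. Of 26 tested, 15 were higher in the ileum, 0 were lower and 11 did not pass, with a median log2 difference of 3.05 against -0.02 over all genes. FOS, of the AP-1 transcription factor, was at 534 and 553 CPM in ileal members and 3.02 and 10.0 CPM in those of PBMC (log2 difference 6.34, SE 0.63). NR4A2, a nuclear receptor induced by T cell receptor signals, was at 262 and 248 CPM against 3.02 and 4.68 CPM, a log2 difference of 6.07 (SE 0.34, adjusted p = 5.21e-06 by edgeR's quasi-likelihood test). CD69, an early activation antigen that also holds lymphocytes in tissue by opposing S1PR1, was at 489 and 324 CPM against 45.3 and 75.6 CPM (log2 difference 2.81, SE 0.35). The ileum and PBMC values did not overlap for these 3 genes, of which CD69 lost its call with pig 1 left out of the compared groups. The list had 10 higher genes without pig 1 and 13 without pig 2. Ileal suspensions were made by dissociating tissue and PBMC were not, so that tissue of origin and preparation cannot be told apart.

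CXCR4, the receptor for the chemokine CXCL12, was at 422 and 417 CPM in the ileum against 9.07 and 23.4 CPM in PBMC (log2 difference 4.70, SE 0.31). CREM, a cyclic AMP response factor, was at 866 and 875 CPM against 31.2 and 48.1 CPM (4.52, SE 0.30), and RGS1, a brake on chemokine receptor signals found in gut T cells, at 873 and 557 CPM against 17.1 and 38.8 CPM (4.71, SE 0.42). Each was separated between the tissues in both pigs. B-gated cells of the ileum had RGS1 in 64.7% of cells and naive-gated cells in 65.5%, and other T cells of the ileum in 81.5%. CXCR4 was in 72.1% of B-gated and 50.9% of naive-gated ileal cells.

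Quiescence genes did not fall. Of 10 tested, 4 rose (BTG1, BTG2, TOB1 and PELI1) and 0 fell, and BTG1, an antiproliferative gene of resting T cells, was at 2387 and 2131 CPM in the ileum against 1033 and 1091 CPM in PBMC (log2 difference 1.18, SE 0.12). Of 18 genes of CD4 T cell activation, follicular and regulatory function, 7 rose (ICOS, CTLA4, LAG3, GPR183, MAF, BCL6 and TNFRSF18) and 0 fell. ICOS, the costimulator of follicular helper cells, was at 166 and 105 CPM against 34.2 and 53.5 CPM (log2 difference 1.69, SE 0.30). CTLA4, an inhibitory receptor, was at 70.3 and 70.0 CPM against 10.1 and 6.69 CPM (3.20, SE 0.40). GPR183, which guides lymphocytes to the edge of follicles, was at 531 and 442 CPM against 118 and 106 CPM (2.21, SE 0.27). FOXP3, the regulatory T cell factor, was found in 10 of 220 ileal members (4.55%) and in 1.98% and 1.67% of those of PBMC, and did not pass the test (log2 difference 1.63). BTG2, PELI1, GPR183, MAF and TNFRSF18 lost their calls with either pig left out of the compared groups, TOB1, BCL6 and ICOS without pig 1, CTLA4 without pig 2, and PELI1 and TNFRSF18 also without the whole ileum library of pig 1.

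Of 26 gut effector and residency genes tested, 8 rose in the ileum and 0 fell, with a median log2 difference of 0.94. CCR9, the receptor that brings T cells to the small intestine, was at 99.1 and 127 CPM against 29.2 and 27.4 CPM (log2 difference 2.10, SE 0.21, adjusted p = 0.000138 by edgeR's quasi-likelihood test). It was densest in TRDC-bearing ileal members, with 238 and 253 CPM, and lower in CD4-bearing ones, with 46.9 and 116 CPM. Without the whole ileum library of pig 1, the values of that pig were 185 CPM in TRDC-bearing and 23.5 CPM in CD4-bearing members. With a gate of at least 3 UMIs, the CCR9 difference was 1.04 and the adjusted p was 0.141 in the same test. IFNG, the gene of interferon gamma, was at 57.5 and 54.1 CPM against 8.06 and 3.34 CPM (3.48, SE 0.56), but lost its call with either pig left out, as did CXCR6, DUSP4 and CRTAM. In the ileal members of pig 1, IFNG was at 32.3 CPM without its whole ileum library. BHLHE40 lost its call without pig 2. CCL5 was not separated, with 1135 and 617 CPM in the ileum and 1974 and 283 CPM in PBMC.

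IL22, a cytokine that acts on epithelium, had 57.5 and 175 CPM in ileal members and 0 UMIs in those of PBMC. Against a floor of 3 counts in the PBMC members of the same pig it was at least 19.0-fold higher in pig 1 and at least 87.2-fold higher in pig 2. Without the whole ileum library of pig 1, its level in that pig was 32.3 CPM from 7 UMIs, at least 10.7-fold higher. The UMIs lay in 10 and 9 ileal members, 8.64% of the 220 at a median depth of 2607 UMIs, while 1.72% of ileal B-gated cells carried IL22 at a median of 2989. Other ileal T cells had it in 5.44%. In pig 2 a single cell held 30.9% of the 55 UMIs, and IL22 lost its call with pig 2 left out of the compared groups.

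Of the receptor complex list 2 of 18 genes rose, CD28 among them. Of 12 genes of the homing list CCR9 and CXCR4 rose and ITGB1 fell. Of 7 tested genes of the TGF-beta signalling list SKIL rose and 0 fell, while SMAD2, which is not on that list, fell. Of 16 interferon-stimulated, 12 glycolysis and 58 ribosomal protein genes 0 passed in either direction, with median log2 differences of -0.25, 0.11 and 0.04. Genes lower in the ileum were led by HBB, the β chain of haemoglobin, with 3.20 and 25.4 CPM in the ileum and 2127 and 1632 CPM in PBMC, where it was found in 294 of 303 and 252 of 419 members and in 96.2% and 70.8% of B-gated cells. A single cell of each pig held 46.8% and 45.4% of the HBB UMIs of the PBMC members. S100A4 and S100A6, calcium-binding proteins of motile and activated cells, fell by 1.92 and 2.16 on the log2 scale, and the integrin chain ITGB1 by 2.08. The actin cross-linker FLNA (-1.89), SMAD2 of TGF-beta signalling (-1.86), MAP3K1 (-1.60), GIMAP4 (-1.60), TXNIP (-2.08) and CAPG (-1.59) were the other genes of the lower end. S100A4 was nonetheless higher in ileal members than in other ileal T cells, with 141 and 235 CPM against 42.4 and 64.5 CPM. With either pig left out of the compared groups HBB, S100A6, ITGB1, TXNIP, FLNA and GIMAP4 lost their calls, while MAP3K1, CAPG and CD28 did without pig 2 and SKIL without pig 1. HBB and TXNIP also lost them without the whole ileum library of pig 1.

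**Figure D5:**
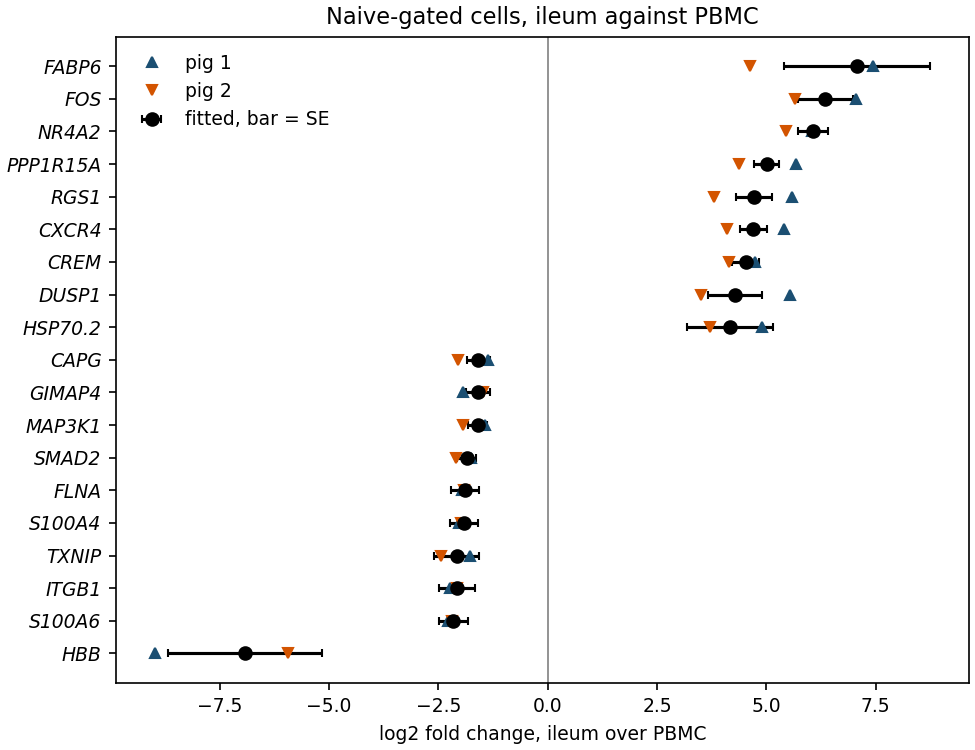
Log2 fold change of ileum over PBMC in naive-gated cells (x axis) for the genes with the largest called change in each direction, as fitted (black, bar = SE) and within pig 1 (blue) and pig 2 (orange). IL22 is left out because it had 0 UMIs in PBMC, and for each gene drawn both pigs lie on the same side of 0, from 7.07 for FABP6 to -6.93 for HBB as fitted.

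The gene FABP6, an ileal bile acid binding protein of enterocytes, was called higher in the ileum. It was at 345 and 73.1 CPM in ileal members and 1.01 and 2.01 CPM in PBMC (log2 difference 7.07, SE 1.67), and it was in 32.7% of naive-gated, 45.5% of other T and 34.1% of B-gated ileal cells. Its call was lost with either pig left out of the compared groups and without the whole ileum library of pig 1. Of 12 epithelial markers, 6 were found in the members of the PP library of pig 1, 3 in that of pig 2, 3 and 5 in the non-PP libraries, and 4 and 3 in whole ileum, while EPCAM was 0 by rule. Their summed level was 436 and 71.3 CPM in PP, 136 and 116 CPM in whole ileum, and 3.02 and 2.67 CPM in PBMC. In non-PP it was 1992 and 1571 CPM, from 26 and 9 UMIs. FABP6 was the most abundant of these markers in each ileal library except non-PP of pig 2, where it was KRT8.

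Markers of antibody-secreting cells summed to 279, 362, 76.6, 175, 292 and 374 CPM in the 6 ileal libraries in the order PP, non-PP and whole ileum of pig 1 and pig 2, and to 80.6 and 87.6 CPM in PBMC, with JCHAIN in 36.8% of ileal members against 69.6% of B-gated cells. JCHAIN was the most abundant of them in PP and whole ileum, and XBP1 in PBMC. The non-PP values rest on 1 UMI of DERL3 in pig 1 and 1 UMI of XBP1 in pig 2. Of 9 B cell markers, 4 were found in the members of each PP library, 0 in those of non-PP, and 1 and 5 in those of whole ileum. They summed to at most 71.2 CPM in any ileal library, with PAX5 at 0 in all 6 of them and CD79B and MS4A1 at 0 by rule. Myeloid markers reached 427 CPM in the PP library of pig 1, almost all of it LYZ with 392 CPM, and at most 125 CPM in the other ileal libraries. Red cell, platelet, stromal, endothelial and mast cell markers summed to 0 to 62.3 CPM in the ileum and to 2233 and 1809 CPM in PBMC. Innate lymphoid markers are a list of 8 to which IL22 belongs. They summed to 265 and 234 CPM in PP and, from 0 and 3 UMIs, to 0 and 524 CPM in non-PP. In whole ileum they summed to 177 and 712 CPM, and in PBMC to 113 and 237 CPM. Of these 8, 7 and 5 were found in the members of PP, 0 and 1 in those of non-PP, 4 and 4 in those of whole ileum, and 5 and 6 in those of PBMC. The most abundant were FCER1G with 98.1 CPM and IL22 with 188 CPM in PP and IL22 with 115 CPM and TYROBP with 347 CPM in whole ileum. The part of such RNA in the tissue difference was not tested.

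The ileum-PBMC difference in naive-gated cells was set against that in other T cells as a difference of differences. It contains the contrasts within each tissue that the rule chose, so that its values are a description. In edgeR's quasi-likelihood test 19 genes (0.262%) were higher and 11 (0.152%) lower at an adjusted p below 0.05, 30 (0.414%) in all of 7251. With the pig as a block there were 92, without the whole ileum library of pig 1 there were 13, and with pig 2 left out of the groups compared there were 0. KLF2 was at 214 and 118 CPM in ileal members and 16.2 and 24.6 CPM in other ileal T cells, and at 482 and 512 against 385 and 335 CPM in PBMC. Its difference of differences was 2.62 on the log2 scale (SE 0.39). KLF2 lost this call with either pig left out and without the whole ileum library of pig 1.

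RASA3, a restraint on Ras and Rap signalling, had 95.9 and 76.3 CPM in ileal members against 5.82 and 6.65 CPM in other ileal T cells, and 200 and 158 against 161 and 168 CPM in PBMC, a difference of differences of 3.71 (SE 0.44). CCR9 had 99.1 and 127 against 238 and 208 CPM in the ileum and 29.2 and 27.4 against 8.68 and 8.85 CPM in PBMC (-2.63, SE 0.32). The signalling genes TRAT1 (-2.60), CD6 (-2.47) and CAMK4 (-2.17) and the receptor chain TRDC (-2.03) behaved alike, with other T cells richer in the ileum and, save for TRDC, poorer in PBMC. FOS (4.60), DUSP1 (4.14), STX11 (3.23) and CTSS (2.86) lay the other way, and in each of them the other T cells of PBMC, which hold the myeloid markers given above, were higher than naive-gated ones. All of these calls were lost with pig 2 left out, those of RASA3, CCR9 and TRDC also without pig 1, and those of FOS, DUSP1 and CTSS without the whole ileum library of pig 1.

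No gene passed between PP and non-PP among naive-gated cells (0 of 1472, 0%), where the non-PP sums hold 5 and 2 cells and 13052 and 5728 UMIs. At an unadjusted p under 0.05 there were 118 in edgeR's quasi-likelihood test and 87 in DESeq2's Wald test, and DESeq2 called 0 after adjustment. On simulated counts this fit recovered 34.1% of genes changed 4-fold and 75% of those changed 8-fold. No gene passed between CD4-bearing and CD8B-bearing members of the ileum either (0 of 862, 0%; 77 at an unadjusted p under 0.05), with 3 CD8B-bearing members in all. DESeq2's Wald test called 1 gene, and edgeR's test with the pig as a block called 8. CD4 and CD8B define the groups and are left aside.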

How the data were processed

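The authors deposited raw UMI counts per gene and barcode, 1 matrix per library for 6 ileal and 2 PBMC libraries, with 25880 genes. The submitters' processing notes name Cell Ranger 4.0.6. The study's later steps (removal of ambient RNA, doublets and low-quality cells) are not in these counts, and no cell annotation was used here. The 32 GEO samples are sequencing runs, 4 per library, and each library counted as 1 replicate. Columns of samples left unused numbered 0.

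Barcodes with at least 500 UMIs were read, and cells were kept and gated as given in the report. The members and gene lists were chosen with earlier results of these data known. Names for 977 genes came from a name table, and 7170 genes stayed without a symbol. Doublets were scored with scanpy 1.11.5 (expected rate 0.07), and cells with a score above 0.25 were left out as an alternative only, since 0 ileal members were above it. Counts were summed per pig, tissue and cell class, 12 sums of 6 classes in the main fit, and tested with edgeR 4.0.16 (TMM scaling, quasi-likelihood test, Benjamini-Hochberg adjusted p below 0.05) in R 4.3.3 with limma 3.58.1. DESeq2 1.42.0 was an alternative. CPM are relative to all UMIs of the summed cells. Descriptive log2 differences added 1 CPM. Tables came from pandas 2.3.3 and exact tests from scipy 1.17.1 (numpy 2.4.6), run in Python 3.11.15, and figures from matplotlib 3.10.9.

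Named genes were the 10 rule genes, the genes of the lists, and the 10 per direction with the largest change among called genes with a mean of at least 50 CPM and the same direction in both pigs (5 for the difference of differences, 15 for the ileal description). Equal numbers mark libraries labelled as the same pig, a label that the DDX3Y UMIs of a whole ileum library go against. Deviations from the class means of same-numbered sums correlated at 0.0767 to 0.476 over 15 pairs of classes and 7257 genes. On simulated counts with genes changed 4-fold, the fit recovered 68.8% of them for ileum against PBMC (6836 genes), 84.7% for naive-gated against other T cells of PBMC (6888 genes), 46.9% for the difference of differences (6836 genes), 34.1% for PP against non-PP (1251 genes) and 57.3% for CD4-bearing against CD8B-bearing members (812 genes). Some genes of the lists are not reported here. The alternatives tried are given in the closing section.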

Additional observations from a re-analysis of the deposited data

Results flagged for a closer look

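The ileum-PBMC difference differed between naive-gated and other T cells by a test of the difference itself in 30 genes (edgeR's quasi-likelihood test, adjusted p below 0.05). This difference contains the contrasts within each tissue that the rule chose, so that it is not independent of the choice of cells. The log2 differences of differences of the named genes were 4.60 for FOS, 4.14 for DUSP1, 3.71 for RASA3, 3.23 for STX11, 2.86 for CTSS, 2.62 for KLF2 and 2.38 for ITGB2, an integrin chain of leukocytes. On the other side they were -2.82 for DUSP4, -2.63 for CCR9, -2.60 for TRAT1, -2.47 for CD6, -2.17 for CAMK4, -2.03 for TRDC, -1.72 for CD247 and -1.23 for CD2. All 15 lost their calls with pig 2 left out of the compared groups.

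The whole ileum library of pig 1, labelled female, held 3208 UMIs of the Y-linked gene DDX3Y, against 5, 1 and 0 in the other libraries of that pig. No comparison used this gene, and it was singled out as a signal above the level of the other libraries under the same label.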

How the results depend on the processing

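The shares kept their direction under each alternative tried. PP minus non-PP ranged from 0.883 percentage points (all passing cells as denominator) to 11.6 (CD3E and the 3 genes alone), and ileum minus PBMC from -24.4 to -4.89 under the same settings. With 1 pig left out they were 2.26 to 2.88 and -12.2 to -7.54, which are also the values within each pig, the pairing. Dropping the GZMB condition, only the CD4-bearing members, leaving out both whole ileum libraries and leaving 1 pig out of the compared groups were chosen after seeing the data. Leaving a pig out of all sums left no residual degrees of freedom and was not run, nor were a gate of at least 3 UMIs and the loss of members with CD79A or JCHAIN for CD4-bearing against CD8B-bearing members, where a sum had 0 cells.

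Of the counts of called genes, ileum against PBMC (386) came to 595 with no filter, 243 with a gate of at least 3 UMIs, 672 without the GZMB condition, 65 in CD4-bearing members only, 232 without both whole ileum libraries, 255 with thinned cells and 74 to 89 with 1 pig left out. With 1 sum per ileal library 242 rose and 283 fell, and the median of all genes moved to -0.26. Naive-gated against other T cells in PBMC (425) came to 819, 640 and 150 with no filter, without the GZMB condition and with thinned cells, and to 147 to 355 with 1 pig left out. The difference of differences (30) came to 283 with no filter, 110 with DESeq2, 16 without members with CD79A or JCHAIN, 85 without the GZMB condition, 13 without the whole ileum library of pig 1 and 0 to 35 with 1 pig left out. PP against non-PP (0) came to 18 with no filter, 5 with a gate of at least 3 UMIs and 1 to 102 with 1 pig left out, and CD4-bearing against CD8B-bearing members (0) to 112 with no filter, 1 with DESeq2 and 0 to 0 with 1 pig left out. With the pig as a replicate block the 5 counts were 518, 758, 92, 0 and 8. Among the called named genes that an alternative could fit, none changed direction, but with CD4-bearing members only 37 of the 54 for ileum against PBMC could be compared, and with thinned cells 53 of them and 52 of the 53 within PBMC. The cause of these moves was not tested.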
